A study of Mus musculus with 8 samples.

Results

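The hypoxia-inducible factor (HIF) pathway was followed through 8 genes in primary murine microglia treated with vehicle or with lipopolysaccharide (LPS). They were the α subunit genes Hif1a and Epas1, the oxygen-sensing hydroxylase genes Egln1 and Egln3, and the hypoxia target genes Bnip3, Ndrg1, Adm and Ankrd37. The 8 genes were fixed by name and found by their Ensembl identifiers through GENCODE vM21 symbols, 8 of 52636 identifiers in the deposited counts. All 8 passed the filter on low counts, which left 13847 genes for testing.

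HIF is a dimeric transcription factor made of an oxygen-regulated α subunit and a stable β subunit. While oxygen is present, prolyl hydroxylases mark the α subunit, the von Hippel-Lindau protein recognizes the mark, and the subunit is degraded. When oxygen falls, the α subunit escapes this fate and the dimer binds hypoxia response elements beside genes for glycolysis, blood vessel growth and mitochondrial turnover. In macrophages, to which microglia are related, inflammatory signals are also known to act on the pathway while oxygen is present. The mRNA measured here says nothing of the amount of HIF protein.

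The cultures came from wild-type C57BL/6 mice by the labels, and the methods name C57BL/6N pups. Microglia were shaken off mixed glial cultures of neonatal brains, so that astrocytes were their neighbors before collection, and were kept in medium with fetal bovine serum and the microglial growth factor CSF-1. One group of 4 libraries received 5 µg/ml LPS, the endotoxin of Gram-negative bacteria, for 24 h, and the other 4 received vehicle, which was not further named. Neither the labels nor the methods name a change of oxygen in either group, and no hypoxia-treated sample was analysed here. The labels call the 4 libraries of a group biological replicates without saying whether animals were pooled, so p-values measure the spread between these libraries.

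Library totals ranged from 20071921 to 30604447 counts. The LPS response was present in every treated library: all 6 inflammatory genes of a checking list rose, with Nos2, the inducible nitric oxide synthase gene, going from 1.02 ± 0.461 to 11573 ± 452 CPM (reads of a gene per 1000000 counted reads, with library sizes scaled by TMM normalization; mean ± SD, n = 4 per group throughout), and Il6, a cytokine gene, from 0.121 ± 0.201 to 500.0 ± 242 CPM. Microglia markers summed to 5894 to 7915 CPM over 10 genes with vehicle and to 1305 to 1521 CPM with LPS, with none at 0. Of these 8 fell, most of all Cx3cr1 (log2 fold change -7.26) and Gpr34 (-6.19), and 2 (Tmem119 and Aif1) were not called. Aif1 had a mean of 125 CPM with vehicle and 126 CPM with LPS. For markers of cells that could have come along, 10 genes a list, the sums were 18.9 to 47.0 CPM with vehicle and 40.1 to 120 CPM with LPS for astrocytes, where Gjb6 was at 0 throughout, and 102 to 182 against 65.5 to 141 CPM for the oligodendrocyte lineage. In both lists 1 gene gave most of the LPS sum while others fell. Of 8 tested astrocyte genes Gja1 rose, from a mean of 0.872 to 48.5 CPM, and 3 fell (Gfap, Aqp4 and Aldh1l1; median log2 fold change of the list -1.21). Of 8 tested oligodendrocyte lineage genes Vcan rose, from 16.6 to 61.2 CPM, and 4 fell (Cspg4, Olig1, Olig2 and Mbp; median -2.30). Endothelial markers summed to 37.3 to 84.2 CPM against 196 to 272 CPM, although Cldn5 and Emcn were at 0 in all 8 libraries and 5 of the 10 genes never passed 3 counts. Of its 4 tested genes, Pecam1, Cdh5 and Flt1 rose. Fibroblast and mural markers summed to 13.3 to 26.7 against 6.38 to 21.6 CPM, where of 3 tested genes Dcn rose and Cspg4 fell. Neuron markers summed to 8.14 to 23.7 against 3.12 to 11.5 CPM, with 4 of 6 tested genes lower. In bulk RNA, fewer cells of a type and less RNA per cell cannot be told apart.

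With LPS, 7 of the 8 genes rose and 1, Epas1, fell (edgeR quasi-likelihood test, adjusted p under 0.05). Of all genes tested, 64.1% were called, 30.3% as higher and 33.8% as lower, so a call alone did not set these genes apart. The sizes of their changes lay further out: the median log2 fold change was 3.84 over the 8 genes and -0.11 over all genes tested. The 8 genes were chosen with earlier results of these data known, so this distance may follow in part from the choice. For the 7 genes that rose, every LPS library lay above every vehicle library, as it did for 28.7% of all genes. For Epas1 every LPS library lay below every vehicle library, as it did for 31.5% of all genes.

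**Figure D1:**
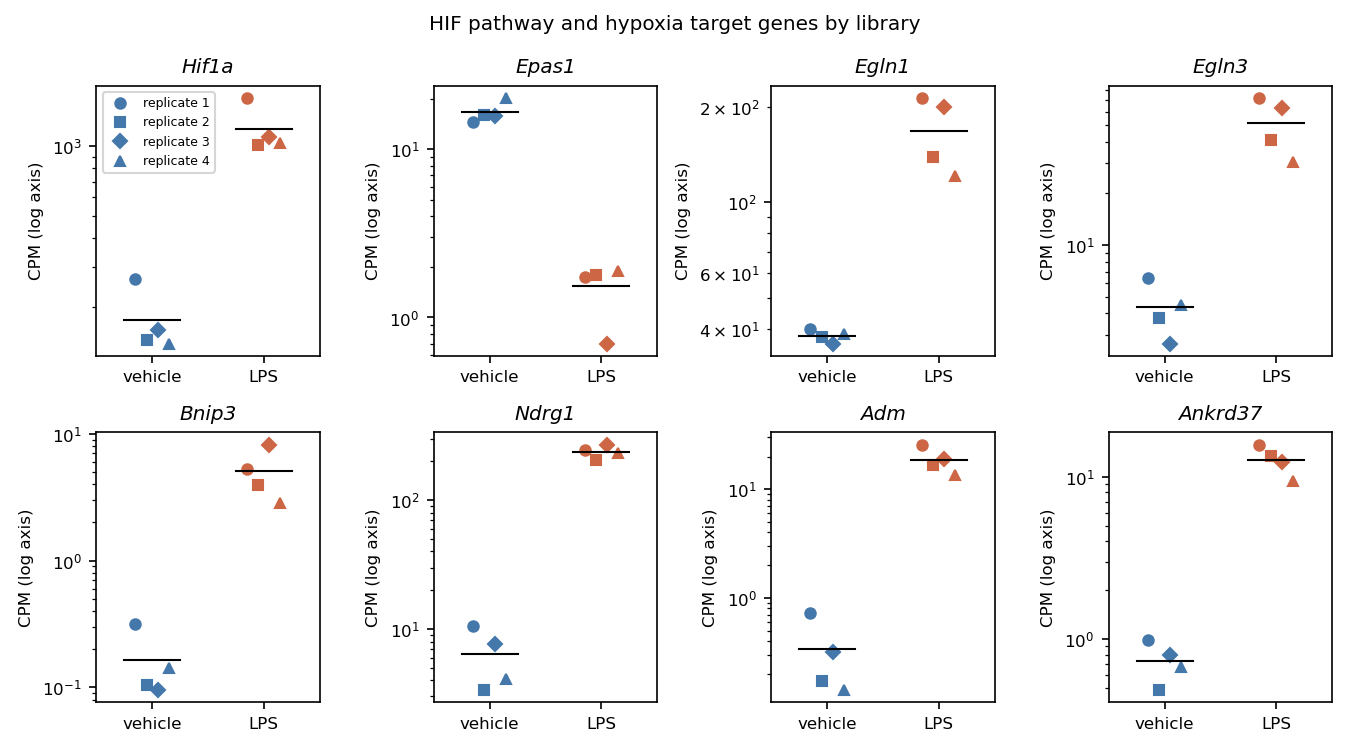
TMM-scaled CPM of each gene in every library, on log axes that differ between panels and do not start at 0. Symbols mark the replicate number and horizontal lines the mean of the 4 libraries. In all 8 panels the groups are apart, with LPS above vehicle everywhere except for Epas1, where the LPS libraries lie between 0.699 and 1.89 CPM and the vehicle libraries between 14.5 and 20.1 CPM.

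The clearest contrast lay between the α subunit genes, which changed in opposite directions. Hif1a (ENSMUSG00000021109, GRCm38 chr12:73901375-73947530, plus strand) encodes HIF-1α, the subunit tied above all to glycolytic targets. Its vehicle libraries measured 264, 145, 160 and 139 CPM and its LPS libraries 1612, 1015, 1096 and 1033 CPM. Replicate 1 was the highest of its group on both sides, and the lowest LPS library was still well above the highest vehicle library. The mean went from 177 ± 58.9 to 1189 ± 284 CPM, 6.72-fold higher, with a log2 fold change of 2.75 (SE 0.26, adjusted p = 1.34e-05). Taken within same-numbered libraries, the log2 differences were 2.61, 2.81, 2.78 and 2.89.

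Epas1 (ENSMUSG00000024140, chr17:86753700-86833410, plus strand) encodes HIF-2α, the second oxygen-regulated subunit. It measured 14.5, 15.9, 15.8 and 20.1 CPM with vehicle and 1.73, 1.80, 0.699 and 1.89 CPM with LPS. Replicate 3 was the lowest of the LPS libraries and rested on 15 reads, while the other 3 held 29 to 35 reads. The mean fell from 16.6 ± 2.45 to 1.53 ± 0.558 CPM, 10.8-fold lower, with a log2 fold change of -3.45 (SE 0.28, adjusted p = 5.74e-06). Endothelial cells and oligodendrocyte progenitors are known to express Epas1. The endothelial sum was higher with LPS, while the oligodendrocyte lineage genes Cspg4 (log2 fold change -4.11), Olig2 (-2.998) and Olig1 (-2.91) fell along with Epas1. In vehicle replicate 3, Olig1 was low (2.06 CPM against 7.55 to 13.8 CPM in the other vehicle libraries) and Epas1 was within the range of the others. In LPS replicate 3, Olig1 was also low (0.047 CPM against 1.14 to 2.69 CPM) and Epas1 was the lowest of its group. The part of such cells in the fall of Epas1 was not tested.

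Set against each other inside each library, which removes the scaling between libraries, Hif1a exceeded Epas1 by 6.56- to 17.3-fold per kb of exon with vehicle and by 511- to 1439-fold with LPS. The log2 ratio rose from 3.30 ± 0.59 to 9.57 ± 0.70, a difference of 6.27. The groups did not overlap, and the two-sided exact permutation p was 0.0286, the smallest that 70 divisions of 4 and 4 libraries allow (0.0286 after adjustment over 3 ratios). With same-numbered libraries taken as pairs, exact sign flips gave p = 0.125 for the same difference, the smallest that 4 pairs allow.

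The remaining subunit genes were measured at lower or steadier levels. Hif3a, whose product includes forms that restrain HIF, rose from 0.170 ± 0.143 to 4.90 ± 2.00 CPM (log2 fold change 4.81, SE 0.64, adjusted p = 0.000128). It stood at 0 in 1 vehicle library and between 2.27 and 6.53 CPM in the LPS libraries. Arnt, the shared β subunit gene, measured 65.0 to 67.4 CPM with vehicle and 83.9 to 96.9 CPM with LPS. Its log2 fold change was 0.45 (SE 0.08, adjusted p = 0.000992), and the sign turned to -0.23 when libraries were scaled by their totals alone. Arnt2 had 2.15 to 7.84 CPM with vehicle and 6.96 to 13.1 CPM with LPS and was not called (log2 difference 0.67, adjusted p = 0.139). Over the 5 subunit genes, 3 rose, 1 fell and 1 was not called, with a median log2 fold change of 0.67 (30.3% of all genes tested were higher and 33.8% lower).

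The prolyl hydroxylase genes come next in the pathway, since their products mark the α subunits for removal and Egln3 and Egln1 are themselves known HIF targets. Egln1 (ENSMUSG00000031987, chr8:124908587-124949324, minus strand) encodes PHD2, the main oxygen sensor of most cells. Its vehicle libraries were tightly grouped at 40.0, 37.6, 36.0 and 38.7 CPM, and its LPS libraries read 212, 139, 199 and 121 CPM. Among the LPS libraries, replicates 1 and 3 lay above replicates 2 and 4. The mean went from 38.1 ± 1.71 to 168 ± 44.6 CPM, 4.40-fold higher (log2 fold change 2.14, SE 0.18, adjusted p = 7.86e-06), the smallest rise among the 7.

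Egln3 (ENSMUSG00000035105, chr12:54178981-54203860, minus strand) encodes PHD3, a hydroxylase that is low in many resting cells. It measured 6.43, 3.77, 2.66 and 4.47 CPM with vehicle and 71.9, 40.9, 62.8 and 30.4 CPM with LPS. As for Egln1, LPS replicates 1 and 3 were the high pair. The mean rose 11.9-fold, from 4.33 ± 1.59 to 51.5 ± 19.2 CPM (log2 fold change 3.57, SE 0.34, adjusted p = 1.64e-05). Per kb of exon, Egln3 stood at 0.100 to 0.217 of Egln1 within the vehicle libraries and at 0.340 to 0.457 of it within the LPS libraries, so Egln1 was the more abundant in all 8. The log2 ratio of Egln3 to Egln1 went from -2.77 ± 0.46 to -1.31 ± 0.18, a difference of 1.46 (exact permutation p = 0.0286, adjusted 0.0286). By exact sign flips over pairs the p was 0.125.

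Other genes that sense oxygen or turn HIF over moved less. Egln2, the remaining PHD gene, had 36.7 to 46.5 CPM with vehicle and 103, 106, 43.3 and 109 CPM with LPS. LPS replicate 3 thus lay inside the vehicle range, and the call (log2 fold change 1.07, SE 0.26, adjusted p = 0.00482) was made with the groups overlapping. It was lost under scaling by library totals (0.43, adjusted p = 0.204). Vhl, which encodes the recognition subunit of the ubiquitin ligase, rose from 33.1 ± 1.23 to 84.8 ± 19.2 CPM (1.36, SE 0.15, adjusted p = 4.47e-05). Hif1an, the gene of the asparaginyl hydroxylase FIH that blocks coactivator binding, was called narrowly at 0.30 (SE 0.12, adjusted p = 0.041), lost the call with a replicate block (adjusted p = 0.0576), and turned to -0.38 under scaling by library totals. It was also lost without LPS replicate 2, 3 or 4 (adjusted p = 0.0735, 0.0578 and 0.0675), with upper quartile scaling (0.14, adjusted p = 0.233), with no filter (0.119) and with 10 counts in every library (0.0583). Rbx1, the ring subunit of the ligase, fell by 0.51 on the log2 scale (adjusted p = 0.0157). Its call, though not its direction, was lost without LPS replicate 2 (-0.44, adjusted p = 0.0535) or LPS replicate 4 (-0.45, adjusted p = 0.0509). Of 9 tested genes in this list of 10, 6 rose, 1 fell and 2 (Elob and Cul2) were not called, with a median log2 fold change of 0.96, where 30.3% of all genes tested were higher and 33.8% lower. P4htm had too few counts to be tested.

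Of the coactivator genes, Ep300 (0.45, SE 0.12, adjusted p = 0.00855) and Crebbp (0.59, SE 0.11, adjusted p = 0.00085) rose slightly, and with library totals their log2 differences were -0.24 and -0.09. Cited2, whose product competes with HIF for these coactivators, fell from 174 ± 10.5 to 84.1 ± 13.1 CPM (-1.05, SE 0.13, adjusted p = 6.53e-05).

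**Figure D2:**
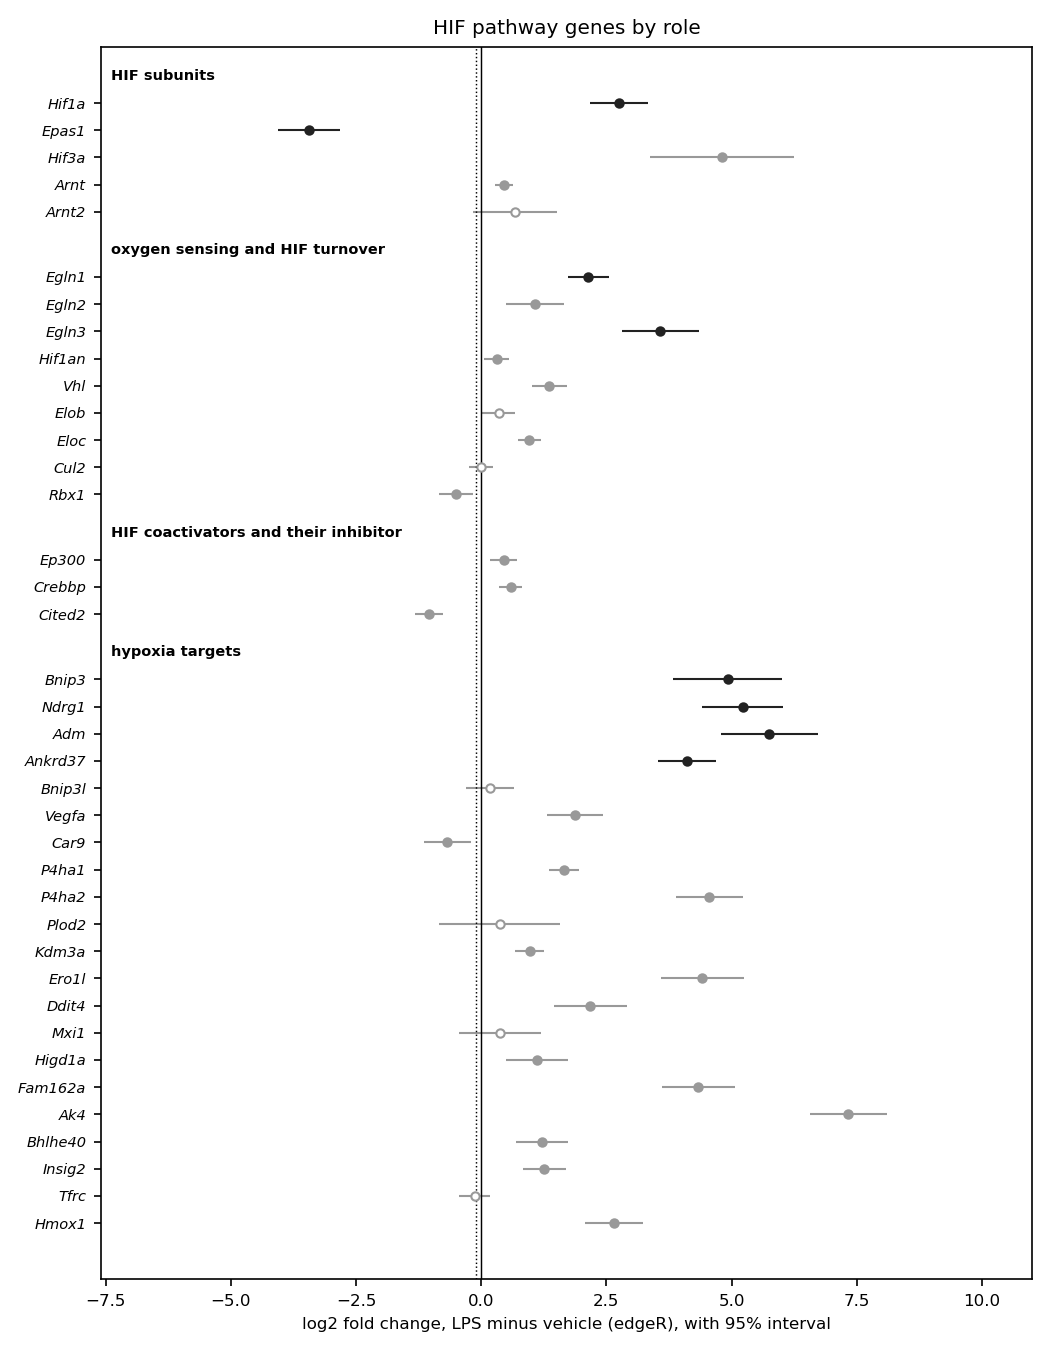
Log2 fold change, LPS minus vehicle, with its 95% interval from edgeR for the pathway genes ordered by role, black for the 8 genes and grey for the rest. Filled points passed the test and open points did not, the solid line marks 0 and the dotted line the median of all genes, -0.11. Epas1 is the one black point to the left of 0, at -3.45, and the other black points run from 2.14 to 5.75.

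The 4 target genes showed the larger rises. All 4 were low in vehicle cultures. For Bnip3 and Adm the reads are given with the levels, and their counting intervals cover counting error only. Vehicle reads are also given for Ankrd37, and Ndrg1 held 97 to 301 reads in a vehicle library. Bnip3 (ENSMUSG00000078566, chr7:138890836-138909519, minus strand) encodes a mitochondrial receptor that marks mitochondria for removal by autophagy. Its libraries held 9, 3, 3 and 4 reads with vehicle and 88, 73, 176 and 53 reads with LPS, or 0.315, 0.104, 0.095 and 0.142 CPM against 5.26, 3.97, 8.20 and 2.86 CPM. The gene was near the limit of detection in every vehicle library and clearly present in every LPS library. The mean rose 30.97-fold, with a log2 fold change of 4.92 (SE 0.49, adjusted p = 1.98e-05). Summed reads of each group were divided by its summed TMM-scaled library sizes. The ratio of these was 32.1, with a 95% counting interval of 20.3 to 53.8. Of its 50-base windows, 16.5% are shared with 4 other annotated genes. Reads from such windows may not align uniquely, and only uniquely aligned reads were counted. Of its exonic bases, 22.3% lie opposite another gene, Gm45507.

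Bnip3l, the related mitophagy receptor gene, behaved otherwise. It measured 70.02 to 81.1 CPM with vehicle and 81.5, 69.0, 129 and 59.3 CPM with LPS, with overlapping groups and no call (log2 difference 0.17, SE 0.21, 95% interval -0.31 to 0.65, adjusted p = 0.504). Bnip3l stood 143- to 399-fold above Bnip3 per kb within the vehicle libraries and 9.04- to 12.1-fold above it within the LPS libraries. The log2 ratio of Bnip3 to Bnip3l rose from -8.08 ± 0.65 to -3.33 ± 0.19, a difference of 4.75 (exact permutation p = 0.0286, adjusted 0.0286). The sign flips over pairs again gave 0.125.

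**Figure D3:**
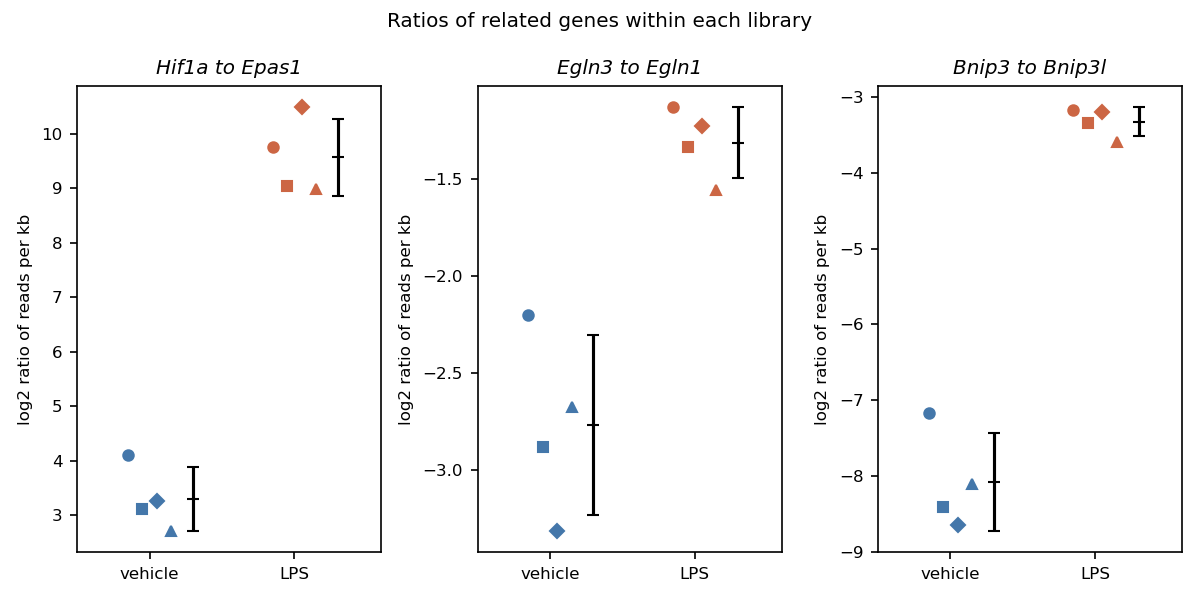
Log2 ratio of reads per kb of exon between related genes within each library, vehicle in blue and LPS in orange, with the symbols of the plot of levels by library, and bars for mean ± SD (n = 4 per group). The axes differ and do not start at 0. In each of the 3 panels every LPS library lies above every vehicle library, with differences of 6.27, 1.46 and 4.75.

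Ndrg1 (ENSMUSG00000005125, chr15:66929318-66969640, minus strand) encodes a stress-responsive cytoplasmic protein often used as a hypoxia marker. It measured 10.5, 3.35, 7.64 and 4.08 CPM with vehicle and 247, 207, 270 and 232 CPM with LPS. Vehicle replicates 1 and 3 lay above replicates 2 and 4, a spread small beside the distance between the groups. The mean rose 37.3-fold, from 6.40 ± 3.33 to 239 ± 26.5 CPM (log2 fold change 5.22, SE 0.36, adjusted p = 2.16e-06). The other members of its family went the other way. Ndrg3 fell from 49.2 ± 3.79 to 24.0 ± 2.84 CPM (-1.04, SE 0.11, adjusted p = 3.3e-05), and Ndrg4 (-1.53, SE 0.40, adjusted p = 0.00711) and Ndrg2 (-1.36, SE 0.47, adjusted p = 0.0281) fell with overlapping groups. The call of Ndrg2 was lost without LPS replicate 2, 3 or 4 or vehicle replicate 1, 2 or 4, with adjusted p-values from 0.0531 to 0.0843. Ndrg2 and Ndrg4 are also known from astrocytes and neurons. Vehicle replicate 3 had the lowest astrocyte sum (18.9 CPM) and neuron sum (8.14 CPM) of its group. It also had the lowest Ndrg2 (1.74 CPM) and Ndrg4 (3.20 CPM). With LPS, Ndrg4 was lowest in replicate 2 (1.14 CPM), which had the lowest astrocyte sum (40.1 CPM, of which Gja1 gave 28.9 CPM). Ndrg2 was lowest in LPS replicate 3 (0.745 CPM), which had the lowest neuron sum (3.12 CPM). The other pairings did not match. Ndrg4 was at 1.72 CPM in LPS replicate 3 and Ndrg2 at 1.52 CPM in LPS replicate 2, neither the lowest of its group. The astrocyte sum ran from 18.9 to 47.0 CPM with vehicle and from 40.1 to 120 CPM with LPS, while both genes fell. Within that list only Gja1 rose, from a mean of 0.872 to 48.5 CPM. Of its 8 tested genes 3 fell (Gfap, Aqp4 and Aldh1l1) and 4 were not called, with a median log2 fold change of -1.21. The part of astrocytes and neurons in these falls was not tested.

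Adm (ENSMUSG00000030790, chr7:110627661-110629820, plus strand) encodes adrenomedullin, a secreted peptide that widens blood vessels. Its libraries held 21, 5, 10 and 4 reads with vehicle and 429, 307, 407 and 250 reads with LPS, which is 0.734, 0.173, 0.317 and 0.142 CPM against 25.6, 16.7, 19.0 and 13.5 CPM. Vehicle replicate 1 was the highest of its group, and it lay far below the lowest LPS library. The mean rose 54.8-fold (log2 fold change 5.75, SE 0.43, adjusted p = 3.73e-06), the largest change of the 8. The ratio of summed reads, scaled as for Bnip3, had a counting interval of 39.7 to 76.5.

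The genes of the other ligand and of the receptors were not uniform. Adm2, the gene of the related peptide intermedin, had at most 3 counts in every vehicle library and 2.15 ± 0.635 CPM with LPS, at least 20.9-fold above a floor of 3 counts per library. Calcrl, the shared receptor gene, rose from 72.7 ± 6.04 to 132 ± 34.7 CPM (0.86, SE 0.17, adjusted p = 0.00145), and this call was lost under scaling by library totals (0.19, adjusted p = 0.369). Of the genes whose products steer Calcrl toward its ligands, Ramp1 fell from 2.19 ± 0.337 to 0.182 ± 0.138 CPM (-3.60, SE 0.56, adjusted p = 0.000365). Ramp2 and Ramp3, which pair with Calcrl to form the adrenomedullin receptors, had too few counts to be tested: Ramp2 stayed at 0.173 CPM or less and Ramp3 at 0.109 CPM or less in every library.

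Ankrd37 (ENSMUSG00000050914, chr8:45996902-46005707, minus strand) encodes a small ankyrin repeat protein known as a HIF-1 target. It measured 0.979, 0.484, 0.792 and 0.674 CPM with vehicle, on 14 to 28 reads, and 15.7, 13.4, 12.4 and 9.40 CPM with LPS. Both groups were compact and far apart. The mean rose 17.4-fold, from 0.732 ± 0.208 to 12.7 ± 2.62 CPM (log2 fold change 4.11, SE 0.26, adjusted p = 1.24e-06). Of its exonic bases, 26.4% lie opposite Lrp2bp and Ufsp2, and it is not stated whether reads were counted by strand.

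**Figure D4:**
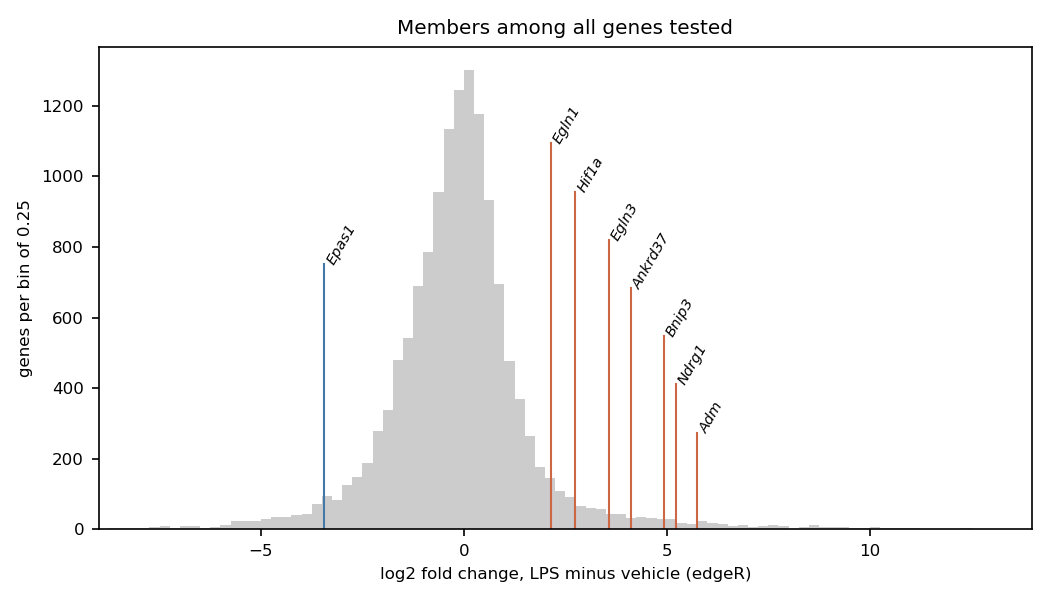
Histogram of the log2 fold change, LPS minus vehicle, over the 13847 genes tested in bins of 0.25, with a vertical line at the value of each of the 8 genes. The height of a line carries no value. The bulk of the genes lies around the median of -0.11, with Epas1 at -3.45 on the left and the other lines from Egln1 at 2.14 to Adm at 5.75 on the right.

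In the order of all tested genes by their rise, Adm came at place 180, Ndrg1 at 214, Bnip3 at 250, Ankrd37 at 350, Egln3 at 436, Hif1a at 636 and Egln1 at 908 of 13847. Epas1 came at place 412 by its fall. The 7 rises therefore lay in the upper tail without reaching the largest changes in the culture.

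Since the targets moved together, the stretches before their transcription starts are shown with the core of the hypoxia response element, the letters HIF dimers are known to bind (ACGTG or GCGTG on either strand). RefSeq promoters (GRCm38.p6) were matched for 6 of the 8 genes, not for Epas1 and Ndrg1. The 4 below were chosen as the gene with the most matches (Bnip3), the one with the next most (Ankrd37), and 2 with few (Adm and Egln3). Each runs 5′ to 3′ along the strand of its gene, with cores in capitals on either strand and with bases that overlap an annotated exon left off. They lie at chr7:138909520-138909756 (minus strand, 14 to 250 bases upstream of the RefSeq start of Bnip3), chr8:45999868-46000100 (minus strand, 18 to 250 bases upstream for Ankrd37), chr7:110627407-110627656 (plus strand, 1 to 250 bases upstream for Adm) and chr12:54203875-54204124 (minus strand, 1 to 250 bases upstream for Egln3).
Bnip3: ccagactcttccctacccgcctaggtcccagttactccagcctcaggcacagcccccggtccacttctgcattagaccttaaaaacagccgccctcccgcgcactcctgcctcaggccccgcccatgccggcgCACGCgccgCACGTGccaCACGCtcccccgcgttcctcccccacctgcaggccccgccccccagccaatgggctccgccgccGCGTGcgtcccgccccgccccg
Ankrd37: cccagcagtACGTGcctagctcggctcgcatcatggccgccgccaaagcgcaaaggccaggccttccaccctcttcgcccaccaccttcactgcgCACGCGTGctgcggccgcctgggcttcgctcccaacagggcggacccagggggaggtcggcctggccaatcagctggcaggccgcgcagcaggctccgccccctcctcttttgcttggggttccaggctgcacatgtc
Adm: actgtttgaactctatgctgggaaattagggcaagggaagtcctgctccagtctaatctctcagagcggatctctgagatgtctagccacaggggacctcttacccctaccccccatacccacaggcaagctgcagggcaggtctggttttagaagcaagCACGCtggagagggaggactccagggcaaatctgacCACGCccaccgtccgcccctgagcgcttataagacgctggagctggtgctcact
Egln3: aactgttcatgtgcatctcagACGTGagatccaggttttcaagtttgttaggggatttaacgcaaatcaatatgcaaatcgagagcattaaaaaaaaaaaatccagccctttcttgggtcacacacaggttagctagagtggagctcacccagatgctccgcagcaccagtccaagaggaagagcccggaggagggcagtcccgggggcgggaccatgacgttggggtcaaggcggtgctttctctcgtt

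Over the whole 250 bases upstream, Bnip3 held 5 matches, Ankrd37 4, Hif1a 3, Egln1 2, Adm 2 and Egln3 1. At least 1 match is common, as 38.6% of 32851 RefSeq promoters hold one in a window of the same length (16.6% for ACGTG and 28.2% for GCGTG). Bnip3 and Hif1a each held the palindrome CACGTG, which carries the core once on each strand and so counts as 2 of their matches; 6.02% of promoters hold it. In Bnip3 the palindrome, seen as the capitals CACGTG, begins 108 bases upstream of the start, between GCGTG cores read on the other strand at 117 and 99 bases. In Ankrd37 the pair of GCGTG cores at 155 and 152 bases faces opposite ways and overlaps in CACGCGTG. Adm held its 2 matches at 90 and 54 bases, and the 1 of Egln3 lay at 229 bases. These matches describe letters and not binding.

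**Figure D5:**
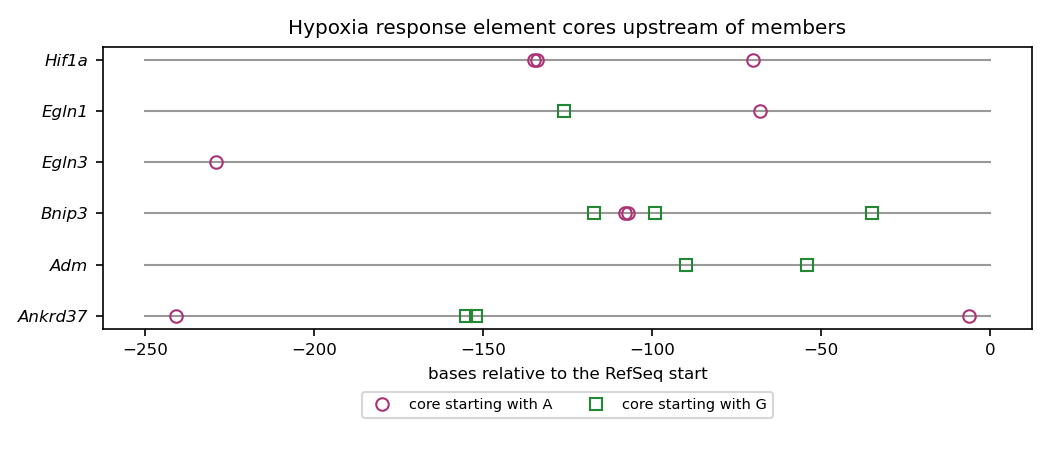
Positions of hypoxia response element cores in the 250 bases upstream of the RefSeq start for the 6 genes with a matched promoter. Circles mark ACGTG and squares GCGTG on either strand, each at the base of the match that lies farthest upstream. Bnip3 has 5 marks and Ankrd37 4, while Egln3 has 1 at 229 bases.

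Per kb of exon, the order of levels within a group also differed between the groups. With vehicle the order was Hif1a at 30.0 ± 10.0 CPM per kb, Egln1 at 10.6 ± 0.475, Epas1 at 2.96 ± 0.438, Egln3 at 1.63 ± 0.596, Ndrg1 at 0.970 ± 0.504, Ankrd37 at 0.476 ± 0.135, Adm at 0.211 ± 0.168 and Bnip3 at 0.072 ± 0.045. The first 3 were each apart from the next in order, while from Egln3 down the ranges of neighbors overlapped. With LPS it was Hif1a at 202 ± 48.1 CPM per kb, Egln1 at 46.7 ± 12.4, Ndrg1 at 36.2 ± 4.02, Egln3 at 19.3 ± 7.20, Adm at 11.6 ± 3.17, Ankrd37 at 8.27 ± 1.70, Bnip3 at 2.24 ± 1.02 and Epas1 at 0.274 ± 0.100. Egln1 overlapped with Ndrg1, Egln3 with Adm, and Adm with Ankrd37. Epas1 thus went from the third place to the last, and Ndrg1 from the fifth to the third.

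Further known hypoxia targets, from a list of 18 that leaves out the 4 above, rose in 13 cases, fell in 1 and were not called in 4, with a median log2 fold change of 1.46, against 30.3% of all genes tested higher, 33.8% lower and a median of -0.11. Ak4, a mitochondrial adenylate kinase gene, went from 0.615 ± 0.160 to 99.7 ± 37.3 CPM (7.33, SE 0.34, adjusted p = 2.79e-07). Vegfa, the gene of the main vessel growth factor, rose less, from 7.02 ± 0.939 to 25.7 ± 8.78 CPM (1.87, SE 0.25, adjusted p = 0.000129). Car9, a carbonic anhydrase gene induced by hypoxia in tumor cells, fell from 3.35 ± 0.525 to 2.09 ± 0.230 CPM (-0.68, SE 0.21, adjusted p = 0.0174), a call that was lost without LPS replicate 4 (adjusted p = 0.0507), vehicle replicate 2 (0.054) or vehicle replicate 4 (0.0671).

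Glycolytic targets rose in 14 of 17 tested genes of a list of 19, 1 fell and 2 were not called, with a median log2 fold change of 2.30, against the same 30.3% higher, 33.8% lower and median of -0.11 over all genes tested. Pfkfb3, which makes the main activator of phosphofructokinase, went from 84.5 ± 17.5 to 4086 ± 488 CPM (5.60, SE 0.22, adjusted p = 1.05e-07), and Slc16a3, a lactate exporter gene, from 22.2 ± 8.13 to 585 ± 182 CPM (4.72, SE 0.32, adjusted p = 2.05e-06). Pfkfb4 fell (-0.71, SE 0.14, adjusted p = 0.00125). With a replicate block the number that fell was 2, with Aldoc (adjusted p = 0.0103), and it was also 2 without LPS replicate 1 (Aldoc), LPS replicate 3 (Slc2a3) or vehicle replicate 3 (Aldoc). Several of these genes share windows with pseudogenes (53.9% for Pgk1), Aldoa had more than 1 identifier and was left out, and Gapdh held too few uniquely assigned reads to be tested.

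Among 8009 further genes that reached a mean of 3 on the log2 CPM scale, those most like Hif1a over the 8 libraries were Sod2 (Pearson r = 0.998 on log2 CPM) and Eno1 (0.997). For Epas1, of 8010 genes, they were Emc8 (0.997) and Mthfd1 (0.997). The 8 points share the 2 groups, so most of each r follows from the groups. For deviations from the group means the r was 0.958, 0.932, 0.938 and 0.942 in the same order. The genes were picked for the highest r over these same 8 libraries. A high r of the deviations thus follows in part from the choice and is no separate evidence of likeness.

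The call and the direction of all 8 genes held under every alternative that could be run for them, 17 for 6 of the genes and 16 for Bnip3 and Adm, which a requirement of 10 counts in every library removed. Their log2 fold changes ranged from 2.08 to 3.04 for Hif1a, -4.11 to -3.19 for Epas1, 1.45 to 2.28 for Egln1, 2.88 to 3.86 for Egln3, 4.22 to 5.45 for Bnip3, 4.55 to 5.59 for Ndrg1, 5.09 to 6.45 for Adm and 3.44 to 4.31 for Ankrd37. TMM factors did not overlap between the groups (1.21 to 1.32 with vehicle, 0.701 to 0.833 with LPS). Scaling by library totals moved the median of all genes by -0.68 and split the calls into 1989 higher and 8454 lower, against 4191 and 4686.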

How the data were processed

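Counts of 8 libraries of primary murine microglia, 4 with LPS and 4 with vehicle, were analysed. The deposited values were raw counts per Ensembl gene of uniquely aligned single-end reads, made by the authors with HTSeqGenie (v4.30) and GSNAP on GRCm38 without normalization. The annotation release and whether strand was used in counting are not given in the sources used here, and the labels and methods name different kits and sequencers. Symbols, positions and exon lengths came from GENCODE vM21 (52489 of 52636 identifiers matched; the rest held 0.0051% of counts), and promoters from RefSeq on GRCm38.p6.

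Genes were tested with edgeR 4.0.16 in R 4.3.3 (TMM, filterByExpr set to 10 counts and a total of 15, two-sided quasi-likelihood test, Benjamini-Hochberg adjustment over all tested genes, threshold 0.05). Levels are CPM on TMM-scaled library sizes, and levels between genes are per kb of merged exons. Log2 ratios within a library (0.5 reads added) were compared between groups over all 70 divisions of the libraries (exact permutation, two-sided). The fit was checked on simulated counts in which few genes changed. That check does not bear on the scaling of these data, where 64.1% of tested genes were called. DESeq2 1.42.0, other scalings and filters, stricter thresholds, a replicate block and leaving out each library were the alternatives; scaling by library totals was added after seeing the data. Scripts used Python 3.11.15, numpy 2.4.6, pandas 2.3.3, scipy 1.17.1 and matplotlib 3.10.9.

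The labels do not say whether same-numbered libraries share a culture. Over 8010 genes, their deviations from the group means gave a Pearson r of 0.373 for replicate 1, 0.196 for 2, 0.171 for 3 and 0.108 for 4, all over the limit of 0.1 for treating numbers as pairs, while the exchanged pairs of replicates 2 and 4 gave 0.146 and 0.137. The labels name no batch.

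The 8 genes and the gene lists were chosen with earlier results of these data known. Named besides the 8 genes are, per list, the 2 largest rises and falls among called genes and the family partners of the 8 genes; 1 gene of the list of other hypoxia targets is counted but not reported here. The genes most like Hif1a and Epas1 were named by their r. Other genes outside this rule are named to account for a count, an order or a limit and were chosen after their values were seen. They are Arnt2, Elob, Cul2, P4htm, Aldoc, Slc2a3, Aldoa, Gapdh, Pgk1, Plod2, Mxi1, Il1b, Il1a, Ptgs2, Tnf and overlapping genes. The markers among them are Tmem119, Aif1, Gjb6, Aldh1l1, Olig1, Mbp, Cldn5, Emcn and Flt1.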

Additional observations from a re-analysis of the deposited data

Results flagged for a closer look

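In groups of 4 libraries, a value was marked where its gap to the nearest of the others took up most of the range of its group (Dixon's test at 95%, which marks about 1 group in 20 by chance). Of 44 groups tested, 6 were marked. Hif1a was marked in both groups, each time in replicate 1. Vehicle replicate 1 had 264.5 CPM against 139.2 to 159.6 CPM in the other vehicle libraries, and LPS replicate 1 had 1612 CPM against 1015 to 1096 CPM in the other LPS libraries.

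Epas1 in LPS replicate 3 measured 0.699 CPM, against 1.73 to 1.89 CPM in the other LPS libraries. In the same library Egln2 measured 43.3 CPM, against 104 to 109 CPM in the others. Ndrg2 in vehicle replicate 3 measured 1.74 CPM, against 5.39 to 5.85 CPM in the others. Calcrl in LPS replicate 1 measured 184 CPM, against 112 to 117 CPM in the others.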

How the results depend on the processing

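Of the values of single genes recomputed under the alternatives, 1094 kept their direction and their side of the threshold, 37 kept the direction and lost the call, 14 gained a call and 20 changed sign. The counts of the 8 genes (7 higher, 1 lower) were the same throughout, except that a requirement of 10 counts in every library left Bnip3 and Adm untested. The causes of the changes below were not tested. With a replicate block the 3 ratios kept their differences of 6.27, 1.46 and 4.75 at an exact sign-flip p of 0.125, and the number of glycolytic genes that fell was 2; the block changed no call of the 8 genes. Upper quartile scaling also gave 2 such glycolytic genes.

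With a log2 change of at least 1, 2224 genes were higher and 2998 lower, no gene was lower (0) among the oxygen sensing, other target and glycolytic lists, and 0 coactivator genes were higher. At an adjusted p of 0.01, 0 genes of the oxygen sensing and of the other target list were lower. With at least 10 counts in every library, 1 adrenomedullin gene was higher and 0 lower, and with no filter 2 were lower. Library totals gave 1989 genes higher and 8454 lower, 2 subunit, 3 oxygen sensing, 2 coactivator, 3 other target and 3 glycolytic genes lower and 0 coactivator genes higher. They turned Arnt to -0.23, Arnt2 to -0.0092, Hif1an to -0.38, Elob to -0.33, Ep300 to -0.24, Crebbp to -0.093, Bnip3l to -0.53, Plod2 to -0.38 and Mxi1 to -0.34.

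Leaving out 1 library gave 0 to 2 other targets lower (0 without LPS replicate 4, vehicle replicate 2 or vehicle replicate 4, and 2 without LPS replicate 1), 1 to 2 glycolytic genes lower (2 without LPS replicate 1, LPS replicate 3 or vehicle replicate 3), and 0 to 1 oxygen sensing genes lower (0 without LPS replicate 2 or LPS replicate 4). Cul2, at -0.016, turned to 0.038 with DESeq2 and 0.040 with its size factors, and lay between -0.11 and 0.035 when 1 library was left out. Leaving out 1 library gave -0.10 to 0.32 for Bnip3l, -0.26 to 0.66 for Plod2 and -0.026 to 0.62 for Mxi1, below 0 only without LPS replicate 3. Among the 8 genes, depth limits Bnip3, Adm and Ankrd37 in vehicle cultures most, where a library held 3 to 28 reads.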

Other observations

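Within the LPS group, replicates 1 and 3 both lay above replicates 2 and 4 for 6 of the 7 genes that rose, all but Ankrd37. This arrangement was noticed after the values were seen. It held for 17.4% of all genes tested, for 22.3% of all genes called higher, for 13 of the 18 other hypoxia targets and for 9 of the 17 glycolytic targets. The inflammatory genes Il6 (631, 300, 775 and 294 CPM in LPS replicates 1 to 4) and Il1b (4666, 2101, 4998 and 1924 CPM) were ordered in the same way, and so were Il1a and Ptgs2. Nos2 (11233, 11684, 12166 and 11208 CPM) and Tnf (828, 607, 412 and 730 CPM) of the same list of 6 were not. Replicate 1 was the shallowest of the LPS libraries (20071921 counts) and replicate 3 the deepest (30604447 counts).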
